A study of Mus musculus with 2 samples.

Results

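Wnt signalling was followed through 49 genes in embryonic mouse forebrain that carried either floxed alleles of the histone variant H2A.Z or a conditional knockout of it. The 49 are a list of ligands, receptors, secreted inhibitors, R-spondin axis genes, intracellular components and target genes, and all 49 occur among the 19720 genes of the count table. They were chosen by name with earlier results of these data known, so shares among them describe and do not test. Both genotypes are on a C57BL/6 background. The control group is labelled H2AZfl/fl by genotype and WT in its title, and the second group is labelled H2AZcKO. The labels and protocols name neither the driver nor the cell type of the conditional deletion, nor whether animals were pooled. The age reads embryonic day 16 in the titles and the design text and embryonic day 12 in a characteristics field, and the tissue reads telencephalic in one field and dissected cerebral cortex in the protocol. Triplicates are mentioned in the design text, whereas the table holds 1 count column per genotype, so nothing below has a replicate check and no p-value was computed.

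Wnt proteins are secreted lipid-modified ligands that bind Frizzled receptors together with the co-receptors Lrp5 and Lrp6. Ligand binding blocks the destruction complex of Axin and Apc, so that beta-catenin accumulates and acts in the nucleus with TCF/LEF factors on targets such as Axin2, which feed back on the pathway. In the embryonic forebrain several Wnt and R-spondin genes are expressed at the cortical hem, the signalling centre at the dorsomedial edge of the cortex next to the choroid plexus, and the pathway is known for roles in hippocampal and cortical growth and in the formation of brain vessels.

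The libraries held 8474545 reads in genes for the control and 9028523 for the knockout. Reads of H2afz, the targeted gene, numbered 1152 and 535, a log2 ratio of knockout to control of -1.16 (-1.31 to -1.01). Genes whose reads in the pair of libraries add up to 20 or more are called measured. Ratios were taken after TMM scaling with a prior of 0.5 read, and genes that differ by 1.5-fold or more are said to stand apart and the others to be level. Where a pair of read numbers is given, the control comes first. A ratio is followed by its exact 95% interval (Clopper-Pearson, on how a gene's reads divide between the libraries), which accounts for counting error alone. Dorsal telencephalic markers were all present, with 12 of 12 measured and 0 apart, beside 8.95% of all measured genes apart. By contrast, choroid plexus markers summed to 7184 control and 251 knockout reads, and markers of the diencephalon and midbrain to 734 and 1775. Single genes weighed heavily in both sums: Ttr had 6025 and 12 of the former reads, and Tcf7l2 had 111 and 1017 of the latter. These are bulk samples, in which fewer cells of a type and less RNA per cell cannot be told apart.

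Of the 49 genes, 44 were measured. Standing apart were 11 (25.0%), beside 8.95% of all 14366 measured genes. Of these, 9 (20.5%) were at least 1.5-fold lower in the knockout library and 2 (4.55%) higher, beside 5.43% lower and 3.52% higher of all measured genes. The lower ones were Wnt2b, Wnt3a, Wnt8b, Wnt9a, Fzd4, Fzd10, Rspo2, Rnf43 and Tcf7, and the higher ones Wnt3 and Sfrp4. Of the 44, 7 were both at least 1.5-fold lower and beyond counting error, beside 3.20% of all measured genes. Sfrp4 alone of the 44 was both at least 1.5-fold higher and beyond counting error, beside 2.02%. Counting differences of any size, 11 were lower beyond counting error and 3 higher, beside 9.30% and 12.5% of all measured genes. Log2 ratios were below 0 in 30 (68.2%), beside 49.6%, and the interval lay within 1.5-fold either way in 22, beside 64.4%. The median log2 ratio was -0.06 over the 44 and 0.0018 over all measured genes.

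All 11 genes that stood apart were thinly covered, with 25 to 143 reads in the sum, and 3 of them, Wnt3a, Sfrp4 and Rnf43, had fewer than 10 reads in the lower library. Thinly covered genes stand apart more often: of all measured genes with fewer than 200 reads, 25.1% stood apart, 15.7% lower and 9.45% higher. Of the 20 measured Wnt pathway genes in that range, 9 were lower and 2 higher. Of the 20, 7 were lower and 1 higher by 1.5-fold and also beyond counting error, beside 8.44% and 4.57% of all genes in that range. Log2 ratios were below 0 in 15 of the 20, beside 57.6%. The interval lay within 1.5-fold for 1 of these 20, beside 7.17%. Of the 24 with at least 200 reads, 0 stood apart, beside 1.75% of all genes at that depth, 0.865% lower and 0.885% higher. The interval lay within 1.5-fold for 21 of the 24, beside 89.8%, and 15 had ratios below 0, beside 46.1%. At any size, 4 of the 24 (Axin2, Rspo3, Lef1 and Nkd1) were lower beyond counting error, beside 9.19%, and Wnt7b and Apc were higher, beside 15.8%. In RPKM, reads scaled to exon length and to TMM-scaled library size, the 11 had control levels between 0.223 and 3.55 with a median of 0.825, whereas the other 33 had a median of 8.16. The genes that stood apart were thus those at low levels.

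**Figure D1:**
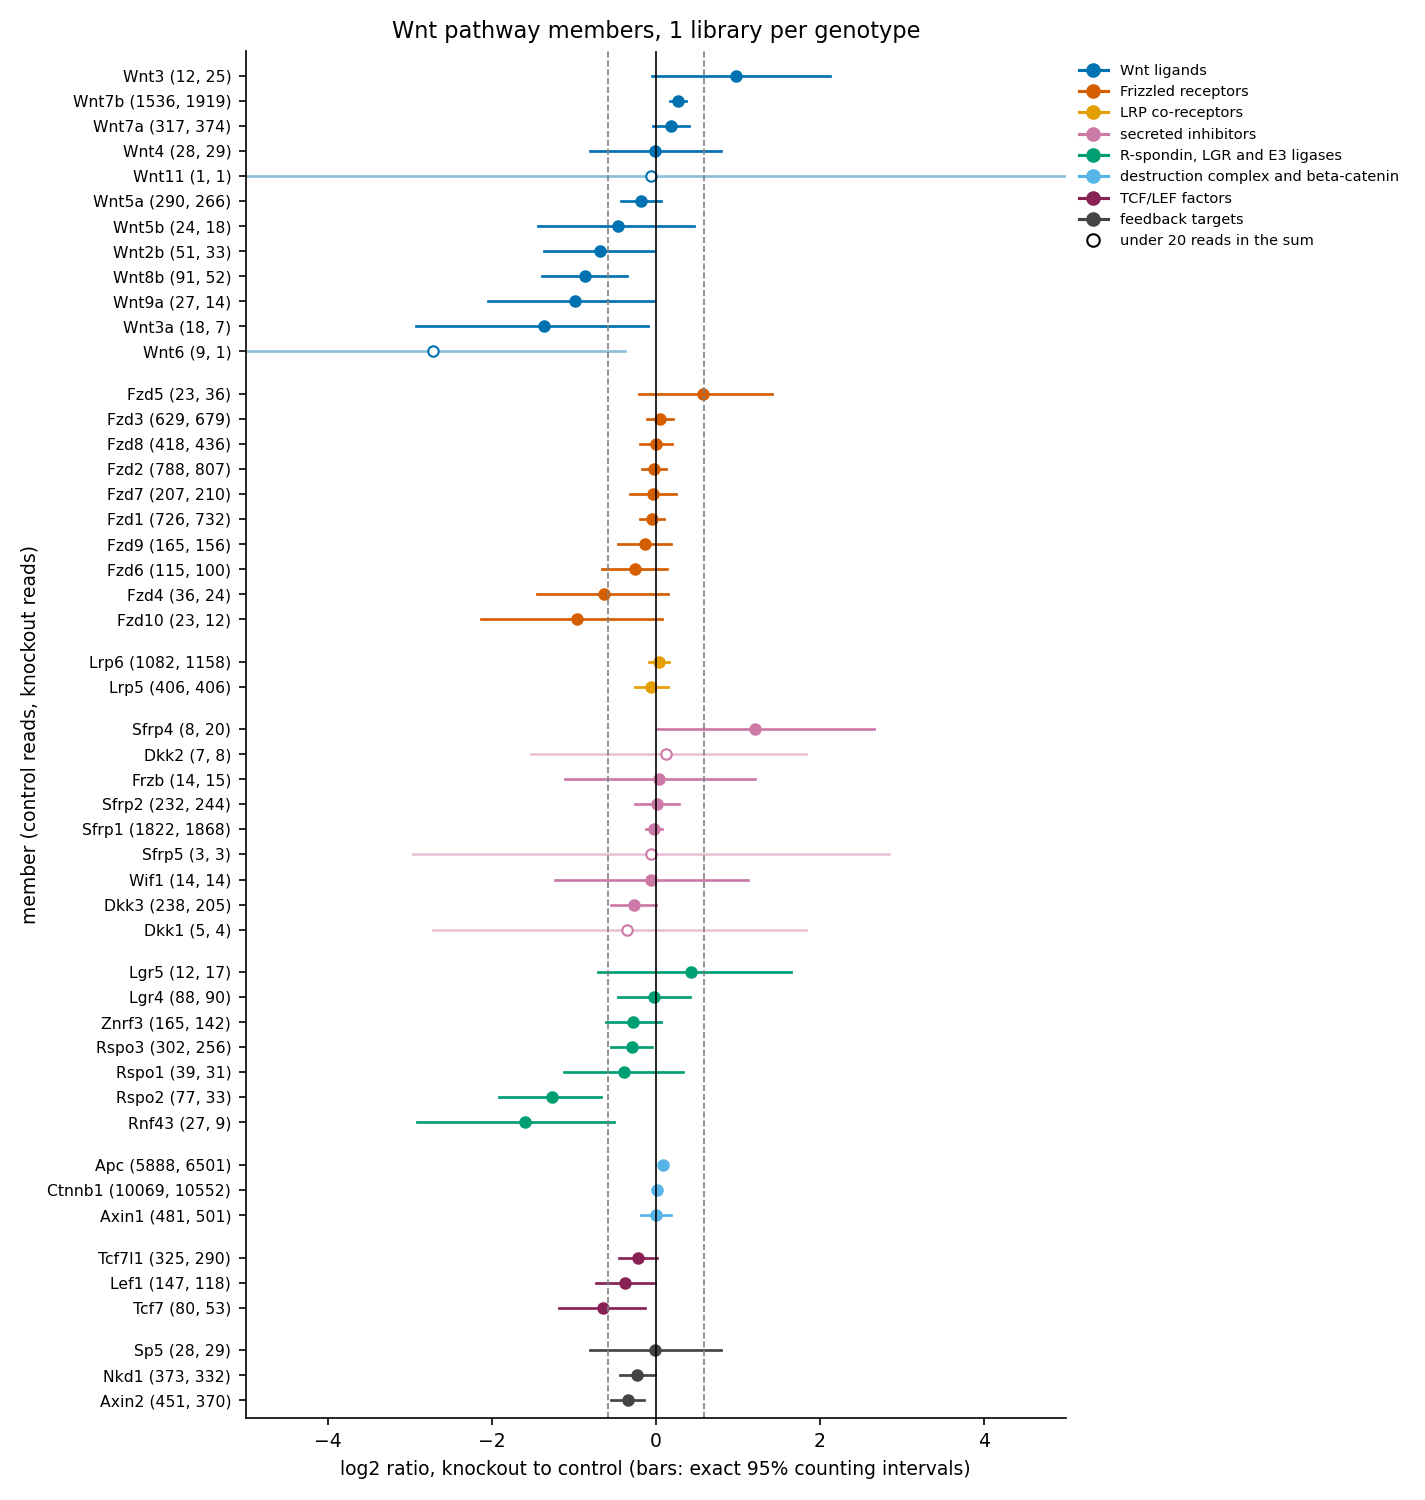
Log2 ratio of knockout to control (x axis) for each of the 49 genes (y axis, with control and knockout reads), grouped by role; bars are exact 95% counting intervals, cut off at the axis ends, dashed lines mark a 1.5-fold ratio and open points have under 20 reads in the sum. Abundant genes such as Ctnnb1 sit near 0, and Rnf43, Wnt3a and Rspo2 lie furthest to the left among measured genes.

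Of the 10 measured ligands 4 were at least 1.5-fold lower in the knockout library, 1 was higher and 5 were level, and those that stood apart were all scarce. Wnt7b, a ligand made by cortical progenitors and neurons that also acts on brain vessels, had 1536 control and 1919 knockout reads, 1.20-fold higher (1.12 to 1.29). Its close relative Wnt7a had 317 and 374 reads, with a log2 ratio of 0.18 (-0.04 to 0.40). Per length, Wnt7b was the highest ligand in both libraries, with an RPKM of 36.6 (control) and 43.9 (knockout), and Wnt7a the next, with 11.7 and 13.2.

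The scarce ligands that stood apart were mostly those of the cortical hem. Wnt8b, a hem and hippocampal ligand, had 91 and 52 reads, a 1.81-fold lower level in the knockout library (1.28 to 2.61). Wnt3a, the hem ligand required for the hippocampus to form, had 18 and 7 reads and was 2.57-fold lower (1.07 to 7.57). Wnt2b, also a ligand of the hem, had 51 and 33 reads, 1.60-fold lower (1.02 to 2.57). In each of these 3 the knockout library was the lower one, but for Wnt2b and Wnt3a the interval came close to level.

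Wnt9a, a ligand best known from joint and skeletal development, had 27 and 14 reads and was 1.97-fold lower (1.02 to 4.14). With DESeq2 size factors the interval of Wnt9a reached level, at a log2 ratio of -0.96 (-2.03 to 0.0012). Wnt3, a ligand of the canonical branch, went the other way with 12 and 25 reads, a log2 ratio of 0.97 whose interval included 0 (-0.04 to 2.13). The remaining measured ligands were less than 1.5-fold apart. Wnt5a, which signals largely without beta-catenin, had 290 and 266 reads, with a log2 ratio of -0.18 (-0.43 to 0.06), Wnt4 had 28 and 29 reads, and Wnt5b had 24 and 18.

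A pair of ligands fell under the read minimum. Wnt6 had 9 control reads and 1 knockout read, a log2 ratio of -2.72 with a wide interval (-8.68 to -0.38). Wnt11 had 1 read in each library, so no difference was detectable at this depth.

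Because Wnt7b outweighs the others, the ligands as a sum and ligand by ligand gave opposite signs. Summed over the 12 ligands, there were 2404 control and 2739 knockout reads, a log2 ratio of 0.13 (0.05 to 0.21). Without Wnt7b the sum was lower in the knockout library, at -0.14, and the median of the 10 measured ligands was -0.32. Wnt7b made up 63.9% of ligand reads in the control library (exact interval 61.9 to 65.8%) and 70.1% in the knockout library (68.3 to 71.8%). Wnt8b made up 3.79% (3.06 to 4.63%) and 1.90% (1.42 to 2.48%). The 4 ligands on the hem list, Wnt2b, Wnt3a, Wnt5a and Wnt8b, together made up 18.7% (17.2 to 20.3%) and 13.1% (11.8 to 14.4%).

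Wnt3a and Wnt9a, both lower in the knockout library, are neighbours. In GRCm38 coordinates Wnt3a lies on chromosome 11 from 59248033 to 59290752 on the minus strand, and Wnt9a from 59306928 to 59333552 on the plus strand, so their starts face each other across a gap of 16175 bases. Of the 12 other measured genes within 250 kb, 11 were less than 1.5-fold apart, with log2 ratios from -0.29 to 0.36. Most measured genes were level too, with 8.95% of all apart. Arf1, the nearest measured gene beyond Wnt3a and a regulator of vesicle traffic, had 2686 and 2872 reads, with a log2 ratio of 0.04 (-0.04 to 0.12). Snap47, the nearest beyond Wnt9a, had 1338 and 1457 reads, with a log2 ratio of 0.07. The exception among the 12 neighbours was 2610507I01Rik, an uncharacterised gene model, with 41 and 22 reads and a log2 ratio of -0.94.

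Frizzled receptors were level wherever they were well covered, as were most genes at that depth. Of all genes with at least 200 reads, 1.75% stood apart. Fzd2, the most abundant of them per length, had 788 and 807 reads, with a log2 ratio of -0.02 (-0.17 to 0.12). Fzd1 had 726 and 732 reads, at -0.04 (-0.19 to 0.11), and Fzd3, the receptor best known for axon guidance through planar polarity, 629 and 679, at 0.05 (-0.10 to 0.21). These intervals lie within 1.5-fold either way. The same held for Fzd7, Fzd8 and Fzd9, whose log2 ratios were -0.04, 0.0042 and -0.14; the ratio of Fzd8 turned to -0.03 and that of Fzd2 to 0.0012 under another scaling.

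The Frizzleds that stood apart were scarce. Fzd10, a receptor of the canonical branch, had 23 and 12 reads, with a log2 ratio of -0.97 (-2.14 to 0.07). Fzd4, the receptor for Norrin and Wnt7 ligands on brain endothelium, had 36 and 24 reads, at -0.63 (-1.45 to 0.14). Both intervals include 0, so neither was beyond counting error. Fzd4 was just past the 1.5-fold limit and fell short of it with a prior of 5 reads. Fzd5, a receptor of the developing eye and hypothalamus, was just short of that limit with 23 and 36 reads, at 0.58 (-0.20 to 1.41). With DESeq2 size factors Fzd5 passed it, at 0.60. Fzd6 had 115 and 100 reads, at -0.26 (-0.66 to 0.14).

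The shares of the receptor family overlapped within counting error. Fzd1 and Fzd2 together held 48.4% of Frizzled reads in the control library (46.6 to 50.1%) and 48.2% in the knockout library (46.5 to 49.96%). Among the co-receptors, Lrp6 had 1082 and 1158 reads, with a log2 ratio of 0.04 (-0.08 to 0.16), and Lrp5 had 406 in each library, at -0.06 (-0.26 to 0.15).

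**Figure D2:**
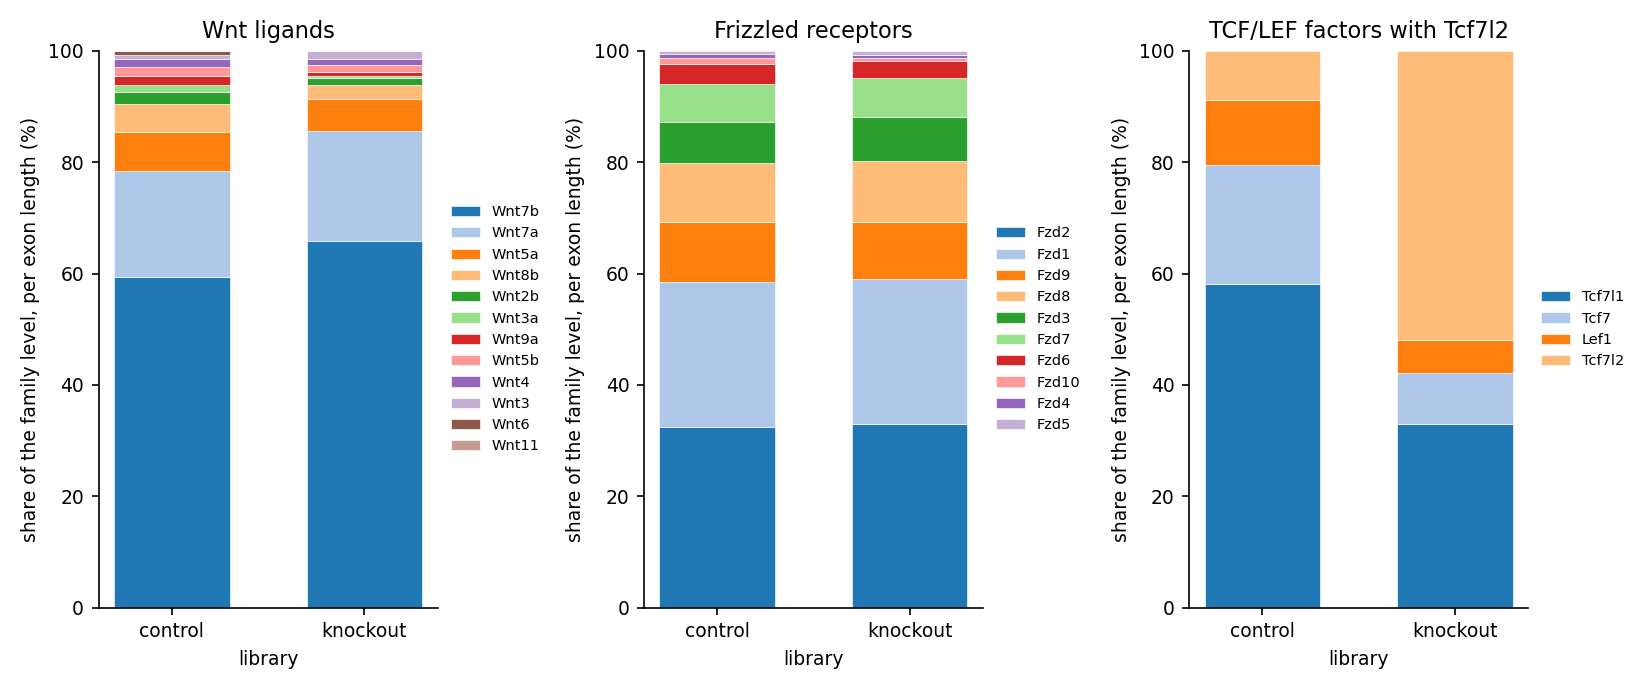
Share of each gene in the summed per-length level of its family (y axis, %) in the control and knockout libraries (x axis), for ligands, Frizzled receptors and TCF/LEF factors with Tcf7l2 added. The Frizzled bars look alike, Wnt7b widens among the ligands, and Tcf7l2 goes from 8.87% to 51.9% of the TCF/LEF level.

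Of the 9 secreted inhibitors 6 were measured, 5 of them level and 1, Sfrp4, higher, beside 3.52% higher of all measured genes. Sfrp1, which binds Wnt proteins through a Frizzled-like domain and is a product of cortical progenitors, was the most abundant with 1822 and 1868 reads, a log2 ratio of -0.02 (-0.11 to 0.07), which turned to 0.0028 with DESeq2 size factors. Sfrp2 had 232 and 244 reads, at 0.02 (-0.25 to 0.28), or -0.02 when scaled by library total. Dkk3, a divergent member of the Dickkopf family, had 238 and 205 reads, at -0.27 (-0.55 to 0.0037), and scaled by library total its interval excluded 0 (-0.58 to -0.03).

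Sfrp4, a secreted Frizzled-related protein, was the single inhibitor apart, with 8 control and 20 knockout reads. Its fold was 2.32 (1.01 to 6.31), and scaled by library total the interval included level (log2 -0.01 to 2.62). Frzb, another Frizzled-related protein, had 14 and 15 reads, and Wif1, a Wnt-binding inhibitor, 14 in each library. Under the read minimum were Sfrp5 with 3 reads in each library, Dkk1 with 5 and 4, and Dkk2 with 7 and 8. Dkk1 and Dkk2 bind the Lrp co-receptors, and at these depths a difference in them was not detectable.

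Among measured genes, the one furthest apart belonged to the R-spondin axis. R-spondins bind Lgr receptors and remove Znrf3 and Rnf43, a pair of membrane ubiquitin ligases that take Frizzleds off the cell surface. Rnf43 had 27 control and 9 knockout reads, 3.01-fold lower (1.42 to 7.54). Rspo2, an R-spondin expressed at the cortical hem, had 77 and 33 reads and was 2.41-fold lower (1.59 to 3.77). These 2 were also the only genes among the 49 that the authors' deposited table marks as significant, a mark carried by 1.61% of its genes.

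The other R-spondins lay in the same direction by smaller margins. Rspo3, the most abundant R-spondin per length, had 302 and 256 reads, with a log2 ratio of -0.29 (-0.54 to -0.05). Rspo1 had 39 and 31 reads, at -0.38 (-1.12 to 0.33). Znrf3, the partner ligase, had 165 and 142 reads, at -0.27 (-0.61 to 0.06). The receptors were level or scarce: Lgr4 had 88 and 90 reads, at -0.02 (-0.46 to 0.42), and Lgr5 had 12 and 17, at 0.43 (-0.71 to 1.64). As a sum, the 7 genes of the axis had 710 and 578 reads, with a log2 ratio of -0.35 (-0.51 to -0.19).

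Core components of the intracellular pathway were level with narrow intervals. Ctnnb1, which encodes beta-catenin, was the most abundant of all the genes on the list, with an RPKM of 226 (control) and 228 (knockout). It had 10069 and 10552 reads, with a log2 ratio of 0.01 (-0.03 to 0.05), or -0.02 when scaled by library total. Axin1, the scaffold of the destruction complex, had 481 and 501 reads, at 0.0022 (-0.18 to 0.19), or -0.03 with that scaling. Apc, which presents beta-catenin for degradation, had 5888 and 6501 reads, at 0.09 (0.04 to 0.14), a shift beyond counting error but only 1.06-fold.

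**Figure D3:**
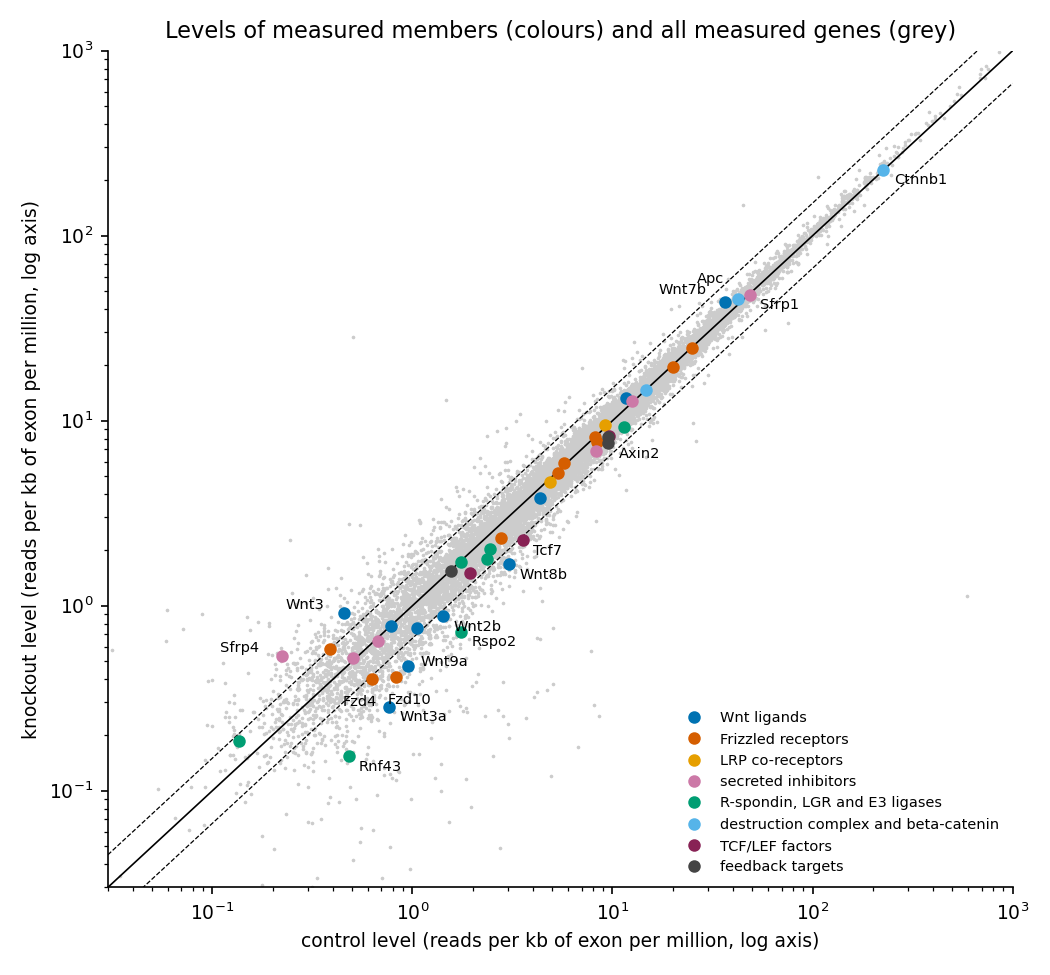
Level of each measured gene in the control library (x axis) and the knockout library (y axis), in RPKM on log axes; coloured points are Wnt pathway genes by role, grey points all measured genes, the solid line equality and the dashed lines a 1.5-fold ratio. Wnt pathway genes past the dashed lines have control levels of at most 3.55, and Ctnnb1 lies on the line of equality at the top right.

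TCF/LEF factors on the list all had log2 ratios below 0, beside 49.6% of all measured genes. Of the 3, 1 stood apart, beside 8.95%. Tcf7, which encodes TCF1, had 80 and 53 reads, with a log2 ratio of -0.65 (-1.18 to -0.13), 1.56-fold lower. Lef1, a factor of the hippocampal primordium and of brain endothelium, had 147 and 118 reads, at -0.37 (-0.74 to -0.01). Tcf7l1, which acts mainly as a repressor, had 325 and 290 reads, at -0.22 (-0.45 to 0.01). With DESeq2 size factors the interval of Lef1 included 0 (upper end 0.0092), and scaled by library total that of Tcf7l1 excluded it (upper end -0.02).

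The fourth factor of the family, Tcf7l2, is not on the list and differed in the opposite direction, with 111 and 1017 reads. It took 16.7% of the reads of the 4 factors in the control library (14.0 to 19.8%) and 68.8% in the knockout library (66.4 to 71.2%). Per length, Tcf7l1 was the highest of the 4 in the control library, with an RPKM of 9.66 against 1.47 for Tcf7l2, whereas in the knockout library the values were 8.29 and 13.0. Tcf7l2 is a marker of the thalamus, and some other diencephalic markers were higher with it. Shox2 had 0 and 85 reads and Gbx2, a homeobox gene of the thalamus, 9 and 54. Of the 9 measured genes on the diencephalic and midbrain list, Tcf7l2 included, 6 were at least 1.5-fold higher and 1 lower. Of all measured genes, 3.52% were higher and 5.43% lower. The lower one was Otx2, also on the choroid plexus list, with 136 and 70 reads. Lhx9, with 363 and 377 reads, and Barhl2, with 89 and 92, were level. The part of these regions in the Tcf7l2 value was not tested.

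Feedback targets, genes that beta-catenin signalling switches on and that restrain it, were level or slightly lower. Axin2, the most widely used readout of the pathway, had 451 control and 370 knockout reads, a log2 ratio of -0.34 (-0.54 to -0.14), 1.27-fold lower. Nkd1, an inhibitor of Dishevelled, had 373 and 332 reads, at -0.22 (-0.44 to -0.0073), and with DESeq2 size factors its interval included 0 (upper end 0.02). Sp5, a zinc finger repressor induced by beta-catenin, had 28 and 29 reads, at -0.0068 (-0.81 to 0.80), or 0.02 with those factors. Summed, the 3 targets had 852 and 731 reads, with a log2 ratio of -0.28 (-0.42 to -0.13). The 6 target genes examined outside the list did not share this shift as a sum, with 2234 and 2299 reads, at -0.02 (-0.10 to 0.07). Ccnd1 weighed on that sum, with 484 and 678 reads, at 0.43 (0.26 to 0.60). Taken gene by gene, 4 of the 6 had log2 ratios below 0, with a median of -0.11. Of these 6, 2 were lower and 1 higher beyond counting error at any size, beside 9.30% and 12.5% of all measured genes. In the authors' deposited table the adjusted p of Axin2 was 0.00465, from a test not given, but the gene is not marked as significant there. The same holds for Wnt8b, also lower in the knockout library, at 0.00607. It holds too for Wnt7b, higher in the knockout library, whose adjusted p of 0.000136 was smaller than that of Axin2. With the marked Rspo2 and Rnf43, these make up the 5 listed genes whose adjusted p was below 0.05.

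Promoter sequences were compared for letters that TCF/LEF factors bind. RefSeq windows on GRCm38.p6, from 250 bases before to 50 after each start, matched 32 of the 49 genes. The motifs CTTTGAA and CTTTGAT were searched on both strands; they share their first 6 letters. At least 1 match was found in 4 of the 32 genes (12.5%), namely Sp5, Dkk1, Wnt5b and Wnt11, beside 9.88% of the 27025 genes in the table. The share was thus near that of all genes. None of the 4 was a gene that stood apart, but Dkk1 and Wnt11 were under the read minimum and could not be called. A match describes letters in a window, not binding. Windows of 4 starts are shown for their 250 bases upstream of the start, 5′ to 3′ on the gene's strand with a motif in capitals: the target with a match (Sp5), the main readout target (Axin2), and Wnt8b and the downstream start of Rnf43, a hem ligand and the measured gene furthest apart. They lie at chr2:70474673-70474922 (plus strand), chr11:108920099-108920348 (plus), chr19:44493222-44493471 (plus) and chr11:87699647-87699896 (plus).
Sp5: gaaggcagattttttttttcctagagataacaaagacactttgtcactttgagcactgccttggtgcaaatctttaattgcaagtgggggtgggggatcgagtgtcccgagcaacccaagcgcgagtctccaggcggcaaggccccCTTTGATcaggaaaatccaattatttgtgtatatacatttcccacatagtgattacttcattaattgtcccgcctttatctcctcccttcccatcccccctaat
Axin2: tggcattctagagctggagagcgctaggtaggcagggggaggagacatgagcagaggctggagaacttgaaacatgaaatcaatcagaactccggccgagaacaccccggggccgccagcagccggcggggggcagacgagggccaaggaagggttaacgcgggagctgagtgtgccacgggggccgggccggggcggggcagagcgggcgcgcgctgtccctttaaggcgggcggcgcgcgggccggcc
Wnt8b: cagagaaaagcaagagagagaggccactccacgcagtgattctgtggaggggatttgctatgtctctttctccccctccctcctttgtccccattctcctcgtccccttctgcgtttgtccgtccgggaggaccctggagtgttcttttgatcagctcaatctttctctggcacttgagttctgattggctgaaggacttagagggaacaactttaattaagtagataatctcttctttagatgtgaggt
Rnf43: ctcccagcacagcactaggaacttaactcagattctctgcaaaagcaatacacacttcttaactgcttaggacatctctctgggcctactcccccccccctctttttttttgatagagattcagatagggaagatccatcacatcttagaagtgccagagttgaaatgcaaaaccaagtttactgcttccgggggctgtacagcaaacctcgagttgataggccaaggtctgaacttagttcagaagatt
The CTTTGAT of Sp5 begins 104 bases before the start. The Axin2 window is rich in G and C (69.2%) with 24 CpG dinucleotides, and those of Sp5 (46%), Wnt8b (48.4%) and this start of Rnf43 (45.2%) hold 6, 5 and 2. Over the 41 windows of the 32 genes, the median GC content was 66.7% and the median number of CpG dinucleotides 24, beside 52.7% and 7 over all 32851 windows of the table.

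Wnt pathway genes outside the list were mostly level as well. Of 62 such genes 56 were listed and 51 measured, and 5 (9.80%) were at least 1.5-fold lower and 2 (3.92%) higher, beside 5.43% and 3.52% of all measured genes. The 5, all beyond counting error, were Sostdc1, Wls, Ror1, Ror2 and Lmx1a, beside 3.20% of all measured genes, and Tcf7l2 was higher beyond counting error, beside 2.02%.

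Wls, the carrier that brings Wnt proteins to the cell surface, had 271 and 164 reads and was 1.72-fold lower (1.41 to 2.10). Porcn, the enzyme that attaches the lipid to Wnt proteins, had 389 and 333 reads, with a log2 ratio of -0.28 (-0.50 to -0.07). Sostdc1, a secreted modulator of Wnt and BMP signals, had 77 and 12 reads and was 6.45-fold lower (3.61 to 13.5). Lower too were Ror1 and Ror2, receptor tyrosine kinases for Wnt5a, Ror1 with 19 and 6 reads, 3.12-fold (1.26 to 10.1), and Ror2 with 112 and 75, 1.55-fold (1.15 to 2.11). Ryk, another receptor tyrosine kinase for Wnt5a and better covered, was level with 719 and 769 reads, at 0.04 (-0.11 to 0.19). Lmx1a, a homeobox gene of the hem and roof plate, had 33 and 14 reads, 2.40-fold lower (1.28 to 4.96).

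The remaining 15 intracellular genes and 7 planar polarity genes held 0 apart in either direction. Beside them, 8.95% of all measured genes stood apart, and 1.75% of those with at least 200 reads. Gsk3b, the kinase of the destruction complex, had 3393 and 3768 reads, with a log2 ratio of 0.09 (0.03 to 0.16) whose interval included 0 when scaled by library total (-0.0074 to 0.13), and Dvl1, which relays the signal from Frizzled, had 753 and 807, at 0.04 (-0.10 to 0.19).

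Among the 49 genes, those on the cortical hem marker list lay on one side. The hem list was chosen with earlier results of these data known, so it describes and does not test. It holds Wnt2b, Wnt3a, Wnt5a, Wnt8b, Rspo1, Rspo2 and Rspo3 of the 49, and all 7 had log2 ratios below 0, from -1.36 to -0.18, beside 49.6% of all measured genes below 0. At least 1.5-fold lower were 4 of the 7 and 5 of the other 37 measured genes, beside 5.43% of all measured genes. The 4, Wnt2b, Wnt3a, Wnt8b and Rspo2, had 25 to 143 reads in the sum, a range below 200 reads in which 15.7% of all measured genes were lower. Summed, the 7 had 868 and 678 reads, with a log2 ratio of -0.41 (-0.56 to -0.27). The other 42 had 27049 and 28522, at 0.02 (-0.0041 to 0.04), a sum in which Ctnnb1 and Apc hold most of the reads. Taken gene by gene, 23 of the other 37 measured genes (62.2%) also had log2 ratios below 0, with a median of -0.02 over the 37.

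Markers of the choroid plexus and the meninges differed more, in the same direction. On the choroid plexus list 13 of 14 measured genes stood apart on the lower side, and Prlr was higher with 7 and 14 reads. The 15 listed genes summed to 838 CPM (control) and 28.1 CPM (knockout), and Ttr made up most of the control sum. Without Ttr the other 14 had 1159 and 239 reads, 5.04-fold lower, with a log2 ratio of -2.33 (-2.54 to -2.13). Ttr, the choroid plexus marker, had 6025 and 12 reads, and Kcnj13, Calml4 and Cldn2 were at 0 in the knockout library. On the list of meninges and fibroblasts 9 of 12 were lower, with summed levels of 501 and 249 CPM and no gene at 0. The endothelial list, whose cells express Lef1, Fzd4 and Axin2, had 1 of 12 lower, summed levels of 330 and 296, and Slco1a4 at 0 in the knockout library. Its sum had a log2 ratio of -0.16 (-0.23 to -0.08). At any size, 4 of the 12 were lower beyond counting error and 0 higher, beside 9.30% and 12.5% of all measured genes. The list of microglia and macrophages summed to 65.1 and 48.1 CPM with 2 of 8 lower, Mrc1 with 109 and 21 reads and C1qb with 72 and 45. Erythroid genes summed to 313 and 257 CPM with 1 of 7 lower, and 5 of the 7 were lower beyond counting error at any size. The dorsal telencephalic list was level, at 4091 and 3953 CPM, and the ventral list higher, at 719 and 1068 with 6 of 12 genes higher and 0 lower. The part of these tissues in the values of the Wnt pathway genes was not tested.

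**Figure D4:**
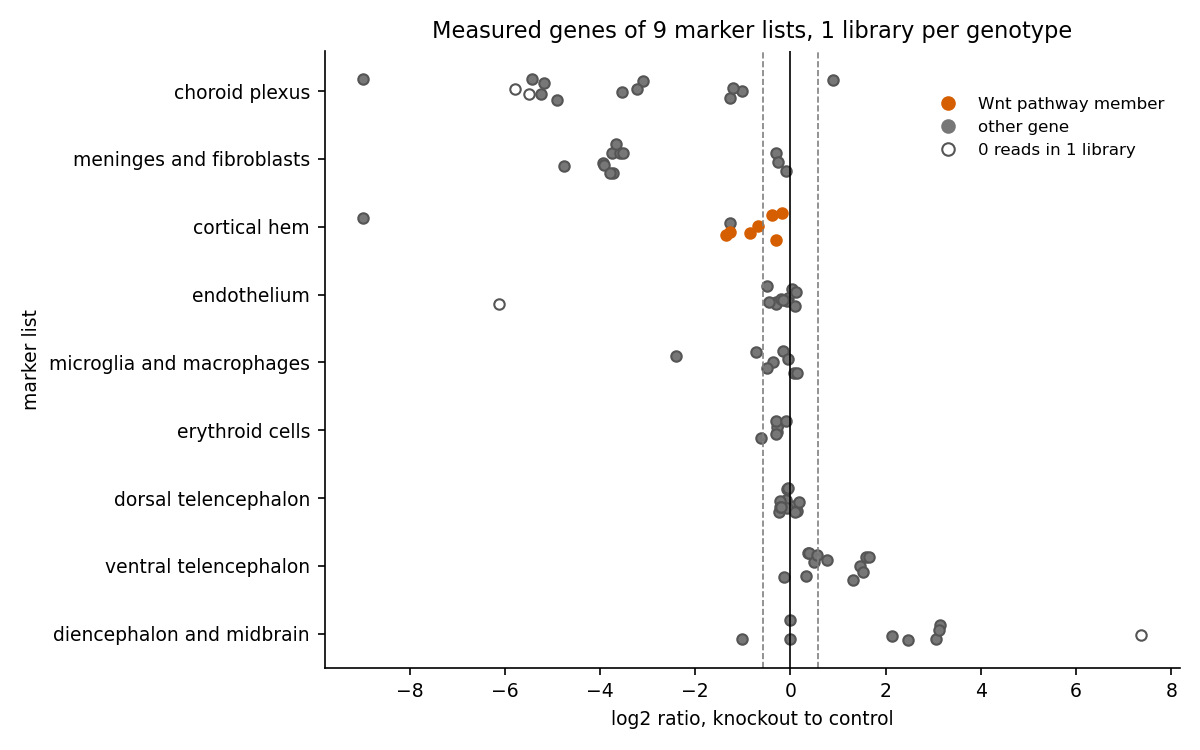
Log2 ratio of knockout to control (x axis) for each measured gene of 9 marker lists (y axis); orange points are Wnt pathway genes, open points have 0 reads in 1 library, where the plotted value depends on the prior and is no bound, and dashed lines mark a 1.5-fold ratio. The 7 orange points of the cortical hem list lie below 0, from -1.36 (Wnt3a) to -0.18 (Wnt5a), and the latter falls within the range of the dorsal telencephalic genes.

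Reads of some genes could include reads of a neighbour, since no source used here gives the strand setting of the counting. Exons of 11 of the 49 overlap exons of another gene, at most 17.8% of their exon length (Fzd5). Among overlapping genes that the table lists, Ulk4, which overlaps 14.6% of the Ctnnb1 exons, had the most reads, with 89 and 64. The gene on the opposite strand of Lef1, Gm43352, had 5 and 1.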

How the data were processed

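RNA sequencing was done on 1 control and 1 knockout sample, each from 2 ug of total RNA, per the labels' protocols. The deposited table gives raw read counts per gene. It also holds the authors' CPM columns, in which 0 reads appear as 0.5, a deposited fold ratio of control to knockout, its log2 value, and p-values with adjusted p-values from a test not given in the sources used here. Bowtie2 2.2.3, TopHat2 2.0.12, HTSeq 0.6.0 and mm9 are named in the submitters' processing notes, without roles. Positions in the table equalled GENCODE M21 positions on GRCm38 for 15544 of 19720 genes (78.8%), and for 37 of the 49 described here, so coordinates are printed as GRCm38; exon lengths come from M21. Symbols were found for 19616 identifiers and not for 104.

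From the counts, TMM factors (edgeR 4.0.16, R 4.3.3) and log2 ratios were computed across all genes; with 1 library per genotype no test was possible. Alternatives were scaling by library total or DESeq2 1.42.0 size factors, a prior of 5 reads, minimums of 1, 10 and 100 reads and a 2-fold limit. The interval calculation was tested on simulated counts. Python 3.11.15, numpy 2.4.6, pandas 2.3.3 and scipy 1.17.1 were used.

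Genes and lists were chosen with earlier results of these data known. All 49 genes are accounted for, with full values for those at least 1.5-fold apart and for Ctnnb1, Axin2, Lef1, Lrp6, Fzd3, Wnt7a and Wnt7b; of other pathway genes, those apart beyond counting error and Tcf7l2, Wls, Porcn, Gsk3b and Dvl1 are named, and of each marker list up to 3 genes. Ryk, Ccnd1, Prlr, Lhx9, Barhl2, Otx2, Arf1, Snap47, 2610507I01Rik, Ulk4, Gm43352 and the genes at 0 reads were named after their values were seen.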

Additional observations from a re-analysis of the deposited data

How the results depend on the processing

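With 1 library per genotype only counting error is known, and of the 20 measured Wnt pathway genes with fewer than 200 reads, 1 had an interval within 1.5-fold either way. No paired analysis was possible because each genotype has 1 count column and the labels give no replicate numbers. A minimum of 100 reads left 3 Wnt pathway genes lower, all 3 beyond counting error, and 0 higher, since fewer genes are tested. The 2-fold limit left 3 lower, all 3 beyond counting error, and 1 higher. Scaled by library total, 0 were higher beyond counting error. Among the other pathway genes, 2 were lower (2 beyond counting error) and 1 higher with the minimum of 100 reads, 3 lower (3 beyond counting error) and 1 higher with the 2-fold limit, and 1 higher with a prior of 5 reads. The ligand median was -0.46 with a minimum of 10 reads and 0.00039 with 100. Without Wnt7b, its most abundant gene, the ligand sum changed sign to -0.14. The sum over Axin1, Apc and Ctnnb1 was 0.0034 scaled by library total and 0.0802 without Ctnnb1, and their median -0.0238 by library total. The dorsal telencephalic sum was -0.0846 by library total and -0.0264 with DESeq2 size factors. Without Ttr, an alternative chosen after seeing the data like the range below 200 reads, the hem sum was -0.45 in place of -3.35 and the choroid plexus sum -2.33 in place of -4.90. Each of 315 single-gene values under another scaling or prior stayed inside its counting interval. A scaling shifts every gene by the same small amount, so this outcome was nearly fixed in advance. Calls near a limit did change, as given above for Wnt9a, Fzd4, Fzd5, Sfrp4, Dkk3, Lef1, Tcf7l1 and Nkd1.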
